A study of Mus musculus with 10 samples.

Results

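The 37 macrophage genes described here were followed in 10 bulk RNA-seq libraries of long-term hematopoietic stem cells (LT-HSCs) sorted from mouse fetal liver at E14.5. They are a fixed list of macrophage identity, clearance, Fc receptor, iron and lysosomal genes, and a gene was taken where it was a row of the count table. All 37 were among the 17404 genes of the table. The 6 KO libraries carry the genotype Tnfrsf11aCre; Spi1f/f, in which Cre from the Tnfrsf11a locus deletes Spi1, the gene of the transcription factor PU.1, in pre-macrophages and their progeny. The 4 WT libraries are Tnfrsf11a+/+; Spi1f/f, so the controls carry the floxed Spi1 alleles as well but no Cre. All embryos were of the same age, and KO and WT embryos were littermates on a C57BL/6 background. The sort took lineage-negative, c-Kit+ Sca1+ CD48- CD150+ cells. CD11b was among the lineage antibodies, whereas F4/80, the usual macrophage antibody of this tissue, was not in that panel. The libraries were thus made from sorted stem cells and not from macrophages. The study describes the stem cells of this model as wildtype, and whether Spi1 was recombined in the sorted cells was not tested here. The level of Spi1 ranged from 9.10 to 101 CPM (counts scaled to the same library total) in KO and from 6.22 to 50.1 CPM in WT.

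Fetal liver macrophages arise from yolk sac progenitors, sit at the centre of erythroblastic islands and engulf the nuclei that maturing erythroblasts expel. The island macrophages display adhesion molecules such as Vcam1 and scavenger receptors, digest engulfed DNA and heme in the lysosome and return the iron through ferroportin. They also secrete complement C1q and soluble Cd5l, and activating Fc receptors signal in them through the adaptor Fcer1g. Tyrobp is an adaptor of other surface receptors. Not every listed gene is particular to macrophages. Of the 37 genes, 17 were set apart as macrophage-restricted (Adgre1, Timd4, Clec4f, Siglec1, Cx3cr1, Ms4a7, C1qa, C1qb, C1qc, Cd163, Marco, Msr1, Cd5l, Trem2, Fcgr1, Fcgr4 and Spic), and the other 20 are also known from stem cells, megakaryocytes, granulocytes, endothelium or liver parenchyma. The name is a working label, since the study also found Cx3cr1 on a part of the fetal liver monocytes. The part of monocyte RNA in the levels of the 17 was not tested.

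The libraries held between 5315435 counts (KO 15406) and 30941726 counts (KO 15412), and the number in the sample's label names each library. Besides the genes that define the LT-HSC gate, every library held transcripts of other cell types. The 10 endothelial genes of a fixed list, among them the sinusoidal genes Stab2 and Oit3, summed to 1556 to 7887 CPM in KO and 476 to 5228 CPM in WT, the lowest sum being that of WT 15416. The 10 erythroblast genes in the table summed to 269 to 3031 CPM in KO and 292 to 8354 CPM in WT, and the 12 granulocyte genes to 12.9 to 1357 CPM in KO and 8.57 to 2198 CPM in WT. KO 15412, KO 15415 and WT 15418 were the libraries with the highest mean erythroblast, granulocyte and hepatoblast levels. The 12 LT-HSC genes of the list were all detected except in WT 15416, where 11 of 12 had counts and Ptprc, the pan-leukocyte gene, stood at 2.73 CPM against 18.0 to 149 CPM in the other libraries. In bulk RNA, fewer cells of a type and less RNA per cell cannot be told apart, and this holds for every level below.

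The upstream sequences of 4 members are shown because the results turn on how these genes part company between libraries. Marco and Cd5l are scavenger genes that were both counted in every WT library, whereas only Cd5l had counts in KO libraries. C1qb and C1qc encode chains of a single protein and are neighbours on chromosome 4. Each sequence is the 250 bases before the RefSeq transcription start in GRCm38.p6, 5′ to 3′ on the strand of the gene. Capitals mark GAGGAA, the core of PU.1 sites, and TGCTGA, part of the site of Maf factors. Either orientation was accepted for both motifs.
Marco, chr1:120505025-120505274, minus strand: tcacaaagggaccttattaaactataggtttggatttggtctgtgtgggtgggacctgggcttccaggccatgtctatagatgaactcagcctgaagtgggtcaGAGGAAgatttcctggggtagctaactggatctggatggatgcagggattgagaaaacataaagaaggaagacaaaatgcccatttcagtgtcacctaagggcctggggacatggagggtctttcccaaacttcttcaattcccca
Cd5l, chr3:87357631-87357880, plus strand: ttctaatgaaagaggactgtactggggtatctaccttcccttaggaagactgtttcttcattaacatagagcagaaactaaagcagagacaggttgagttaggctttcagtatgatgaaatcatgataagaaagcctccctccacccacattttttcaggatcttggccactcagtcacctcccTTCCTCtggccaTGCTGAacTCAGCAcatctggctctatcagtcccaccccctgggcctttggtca
C1qb, chr4:136886201-136886450, minus strand: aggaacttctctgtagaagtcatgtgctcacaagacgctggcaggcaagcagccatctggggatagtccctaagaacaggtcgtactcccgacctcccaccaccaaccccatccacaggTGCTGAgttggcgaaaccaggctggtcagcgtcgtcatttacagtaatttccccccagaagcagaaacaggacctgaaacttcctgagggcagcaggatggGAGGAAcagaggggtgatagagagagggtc
C1qc, chr4:136892915-136893164, minus strand: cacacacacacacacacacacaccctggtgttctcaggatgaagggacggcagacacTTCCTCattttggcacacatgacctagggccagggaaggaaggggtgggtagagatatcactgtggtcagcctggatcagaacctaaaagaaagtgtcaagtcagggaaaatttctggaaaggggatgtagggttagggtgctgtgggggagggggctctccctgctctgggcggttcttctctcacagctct
Each of the 4 held 1 match to the first motif, and the second had 2 matches in Cd5l and 1 in C1qb. These motifs do not overlap each other in the windows shown. RefSeq promoters were found for 28 of the 37 members, and 14 of the 28 had GAGGAA in at least 1 of their promoters. Counted by promoter, it was present in 16 of 33 (48.5%) for the members and in 7639 of 32851 (23.3%) in the table. TGCTGA was present in 9 of 33 (27.3%) member promoters and in 16.1% of all. A match is only a run of letters and was not tied to binding by any measurement here.

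On the TPM scale, which divides by transcript length and so allows genes to be set side by side, the members covered a wide range of levels. Apoe, the lipid carrier, had a median of 1207 TPM over the 10 libraries and made up 52.7% to 82.0% of the summed TPM of the members. Lyz2 (lysozyme) followed with a median of 125 TPM, Lgmn (an asparagine-specific lysosomal protease) with 92.2 TPM, Fcer1g with 76.6 TPM and Hmox1 (heme oxygenase) with 57.4 TPM. The ranges of these genes below Apoe overlapped over the libraries, Lyz2 from 22.0 to 277 TPM and Hmox1 from 1.76 to 71.3 TPM. C1qb, at 37.1 TPM, was the only macrophage-restricted member above 5 TPM in the median. Marco, Clec4f, Timd4 and Fcgr4 had a median of 0 TPM. The macrophage-restricted members together came to 37.6 to 92.0 TPM in KO and 17.1 to 107 TPM in WT.

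**Figure D1:**
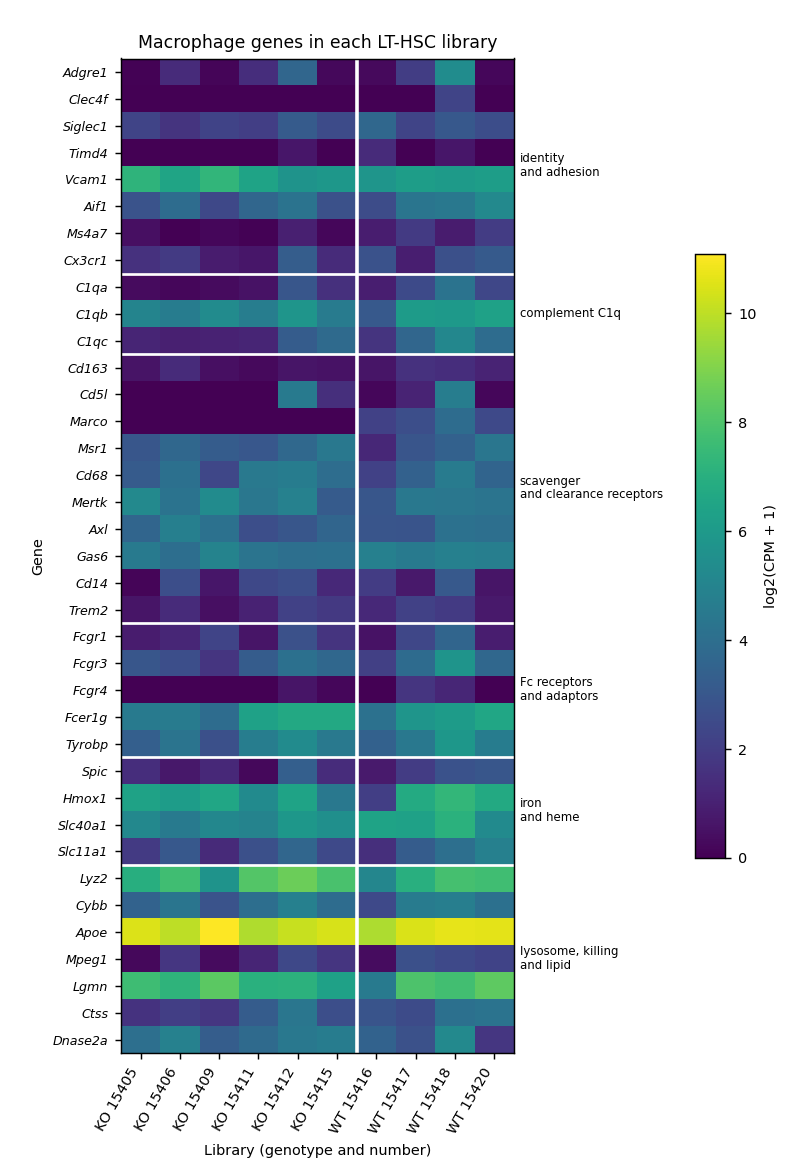
Heat map of log2(CPM + 1) of the 37 macrophage genes (rows, grouped by role) in the 10 LT-HSC libraries (columns, KO left and WT right of the white line), from 0 (dark) upwards (bright). Marco is dark in all 6 KO columns, Cd5l is brightest in KO 15412 and WT 15418, and Lgmn and Hmox1 are lowest in WT 15416.

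Of the 37 members, 2 passed the threshold between KO and WT and both were lower in KO: Marco, a class A scavenger receptor, and Slc40a1, the iron exporter ferroportin. No member passed in the other direction. All 37 passed the filter of at least 11 counts over the libraries. The test was edgeR's quasi-likelihood test with a Benjamini-Hochberg adjusted p below 0.1 over the 16725 genes tested, of which 3.99% passed, 2.67% lower and 1.32% higher in KO. The members' 2 of 37 lower calls (and 0 higher) are to be read against these shares. At an unadjusted p under 0.05, 4 members were lower and 0 higher, beside 10.2% and 8.60% of all genes. DESeq2 with the study's fold-change threshold also called Marco and Slc40a1 alone among the members, beside 6.79% of all genes (3.29% lower, 3.50% higher). The fitted log2 fold change was below 0 for 30 of 37 members, with a median of -0.71, whereas it was below 0 for 46.9% of all genes, with a median of 0.06. Among the 17 macrophage-restricted members it was below 0 for 16, with a median of -1.17, and among the other 20 for 14, with a median of -0.23. Over the members still tested, the median was -0.19 without WT 15418 (21 of 36 below 0), -0.94 without WT 15416 (32 of 37) and -1.13 without KO 15412 (29 of 37). Some other lists were divided in sign and some were not. Below 0 were 4 of 10 endothelial, 5 of 12 granulocyte, 5 of 8 monocyte and 3 of 5 mast cell and basophil genes. Of 23 other macrophage genes that are not members, 12 were below 0 and 11 above (median -0.05). The LT-HSC genes were above 0 for 11 of 12 (median 1.17, 3 called higher in KO), the megakaryocyte genes for 8 of 8 (median 1.09, 0 called) and the hepatoblast genes for 10 of 10 (median 0.77, 0 called), whereas the erythroblast genes were below 0 for 10 of 10 (median -1.40, 0 called). The part of these other transcripts in the members' values was not tested. The members are not independent of each other, and their shared direction was not tested.

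Marco had 0 counts in each of the 6 KO libraries and 45, 60, 193 and 32 counts in WT 15416, 15417, 15418 and 15420, that is 3.41, 5.32, 14.3 and 4.53 CPM. The groups did not overlap. By CPM of the whole gene, Marco was the 1 member of 37 with every KO library below every WT library, an arrangement found for 3.48% of the genes tested. No member had every KO library above every WT library, as 2.88% of the genes tested did. With the KO libraries set to 3 counts each, Marco was at least 33.2-fold lower in KO (edgeR adjusted p = 0.0824). Over all genes tested the smallest edgeR adjusted p was 0.0743. DESeq2 with the study's fold-change threshold gave Marco an adjusted p of 1.26e-12. The two-sided exact permutation test of its CPM gave p = 0.00952, the smallest that the 210 assignments of 6 and 4 libraries allow for that form of test. Although Marco stayed at 0 in KO whichever library was removed, edgeR's adjusted p then ran from 0.0494 to 0.205. It was above the threshold without KO 15405 (0.164), KO 15406 (0.177), KO 15411 (0.205), KO 15412 (0.156), KO 15415 (0.128) or WT 15416 (0.165).

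Slc40a1 stood at 21.8, 35.1 and 57.4 CPM in KO (lowest, median and highest) and at 85.8, 79.9, 135 and 39.3 CPM in WT 15416, 15417, 15418 and 15420. WT 15420 fell within the KO range, and the other WT libraries lay above it. The log2 fold change was -1.18 ± 0.33 (SE), with an edgeR adjusted p of 0.0944, and the two-sided exact permutation test gave p = 0.0286. The call was kept on removal of WT 15420 (0.0774) and lost on removal of any other library. The adjusted p was then 0.178 without KO 15405, 0.191 without KO 15406, 0.108 without KO 15409, 0.213 without KO 15411, 0.156 without KO 15412, 0.139 without KO 15415, 0.182 without WT 15416, 0.115 without WT 15417 and 0.198 without WT 15418. Ferroportin is also known from erythroid cells and hepatocytes, and the sum of the erythroblast genes was highest in WT 15418, the library highest in Slc40a1. The part of these cells in the difference was not tested. Over the 10 libraries Slc40a1 gave r = 0.705 with the mean of the erythroblast list (permutation p = 0.0215, adjusted p = 0.144 over 296 such relations; rho = 0.697, permutation p = 0.0304, adjusted p = 0.176), 0.605 without the 2 libraries farthest from the median of the list and 0.743 within KO. With the mean of the macrophage-restricted members it gave r = 0.754 (permutation p = 0.0108, adjusted p = 0.0975; rho = 0.770, permutation p = 0.0123, adjusted p = 0.119), 0.542 without the 2 farthest libraries and 0.788 within KO.

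**Figure D2:**
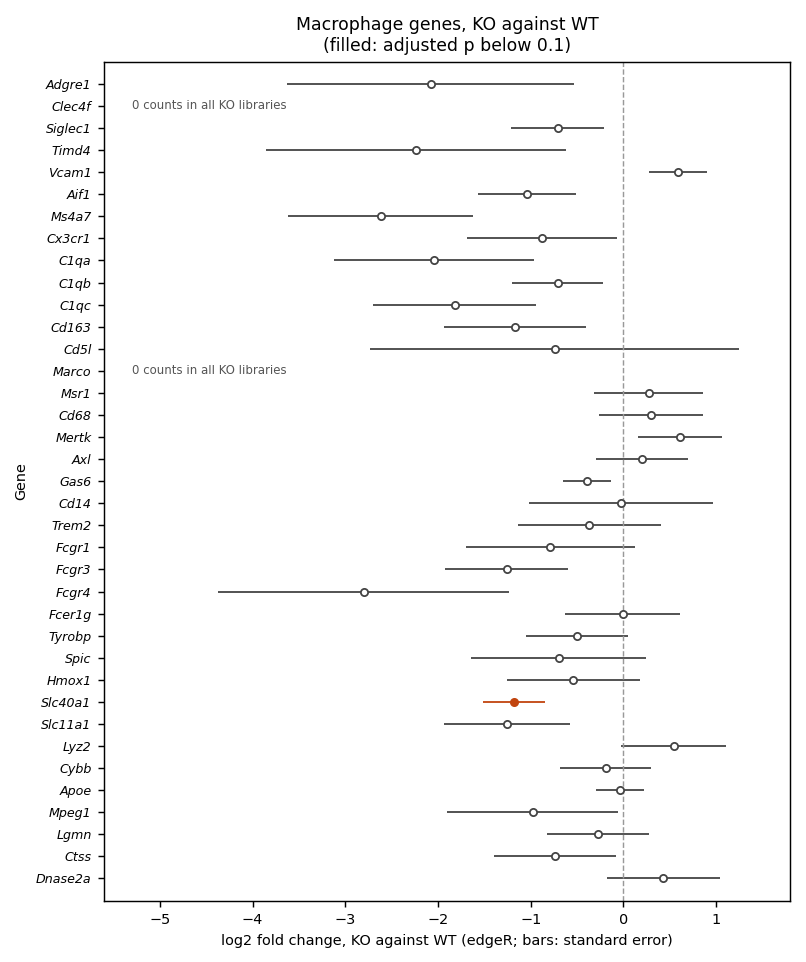
Log2 fold change of each member between KO and WT (edgeR, horizontal bars are standard errors, genes grouped by role from top to bottom, filled points pass an adjusted p of 0.1). Marco and Clec4f, without a count in KO, are given as text because their fitted value has no lower limit, and Slc40a1 at -1.18 is the filled point.

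The identity and adhesion genes include the surface proteins by which macrophages are usually recognised, and none of the 8 passed the test. Adgre1, the gene of F4/80, had 1, 10, 2, 38, 382 and 3 counts in KO 15405, 15406, 15409, 15411, 15412 and 15415, and 3, 34, 551 and 1 counts in WT 15416, 15417, 15418 and 15420. KO 15412 and WT 15418 were high, at 11.8 and 40.7 CPM. The other libraries overlapped between the groups, at 0.0609 to 1.73 CPM in KO and 0.142 to 3.02 CPM in WT. The log2 fold change of -2.08 ± 1.55 (SE; edgeR adjusted p = 0.507) became 1.20 without WT 15418. Clec4f, a lectin of Kupffer cells, had 52 counts in WT 15418 and 0 in the other 9 libraries. Timd4, the phosphatidylserine receptor Tim4, was counted in KO 15412 (19), WT 15416 (21) and WT 15418 (8) alone. Both were thus below the 3-count limit of detection, 0.0928 to 0.474 CPM depending on the library, in most LT-HSC libraries. Ms4a7, a membrane protein of mature macrophages, ranged from 0 to 0.959 CPM in KO and stood at 0.834, 2.75, 0.813 and 2.97 CPM in WT 15416, 15417, 15418 and 15420. Its log2 fold change was -2.62 ± 1.0 (SE; edgeR adjusted p = 0.188), and only DESeq2 without a fold-change threshold placed it past the threshold (adjusted p = 0.0705). The retained-intron transcript Ms4a7-205 held 40.3% of the estimated counts of Ms4a7 over the libraries. It had 31.7 in KO 15412, the KO library that reached the WT range. Among KO libraries the protein-coding transcripts had counts in KO 15415 alone, below the 3-count limit. The protein-coding Ms4a7-202 had 10.6, 22.6, 7.34 and 5.57 estimated counts in WT 15416, 15417, 15418 and 15420. The difference by transcript was not tested. Siglec1, the gene of CD169, and Cx3cr1, the fractalkine receptor, were present in every library at 2.21 to 11.9 and 0.592 to 8.63 CPM. Aif1, the gene of Iba1, had a log2 fold change of -1.04 ± 0.53 (SE; edgeR adjusted p = 0.318). Vcam1, which endothelium also displays, stood at 51.7 to 155 CPM in KO and 55.1 to 71.2 CPM in WT, with a log2 fold change of 0.59 ± 0.31 (SE; edgeR adjusted p = 0.342).

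The scavenger genes did not follow a single pattern over the libraries. Cd5l, a secreted scavenger protein of tissue macrophages, had 0 counts in KO 15405, 15406, 15409 and 15411, 716 in KO 15412 and 27 in KO 15415, and 2, 13, 343 and 1 counts in WT 15416, 15417, 15418 and 15420. Thus 1 library of each genotype held most of its counts, at 22.1 and 25.4 CPM. Marco did not share this distribution. In KO 15412, which had 716 counts of Cd5l, 382 of Adgre1 and 222 of C1qa, Marco was at 0, whereas WT 15416 and WT 15420, with 2 and 1 counts of Cd5l and 3 and 1 of Adgre1, had 45 and 32 counts of Marco. The log2 fold change of Cd5l was -0.74 ± 1.99 (SE; edgeR adjusted p = 0.880), and it became 3.04 without WT 15418. Cd163, the hemoglobin scavenger, was detected in every library at 0.228 to 2.04 CPM and Msr1, a class A scavenger receptor like Marco, at 1.37 to 20.8 CPM. Trem2, a lipid receptor, ranged from 0.379 to 3.37 CPM, and its retained-intron transcript Trem2-203 held 22.1% of its estimated counts over the libraries. Cd68, a lysosomal membrane protein, and Cd14, the endotoxin co-receptor, had log2 fold changes of 0.30 ± 0.56 and -0.03 ± 0.99 (SE). The receptors Mertk and Axl, which bind apoptotic cells through the bridging ligand Gas6, differed by 0.61 ± 0.45 and 0.20 ± 0.50, and Gas6 by -0.39 ± 0.26 (SE). None of these passed the test. For Mertk, the processed transcript Mertk-202 held 54.5% of the estimated counts over the libraries and the protein-coding Mertk-201 held 45.5%.

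**Figure D3:**
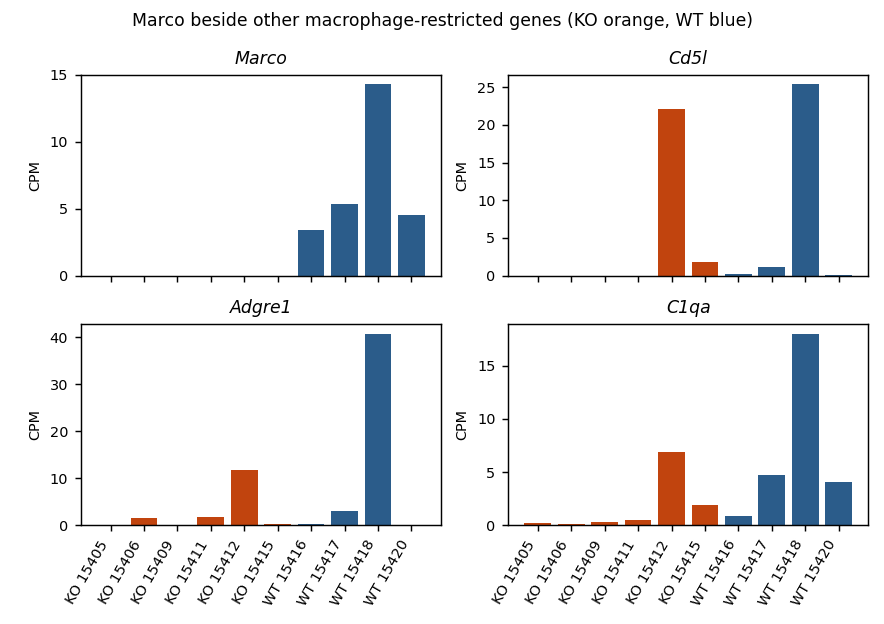
Bars give CPM of Marco, Cd5l, Adgre1 and C1qa in each of the 10 libraries (KO orange, WT blue, axes from 0 and scaled separately). Marco has bars in the 4 WT libraries alone, while Cd5l and Adgre1 rise in KO 15412 (22.1 and 11.8 CPM) and WT 15418 (25.4 and 40.7 CPM).

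C1q is built from 3 chains, encoded by C1qa, C1qb and C1qc side by side within chr4:136880129-136898803 (GRCm38). C1qa had 4, 1, 5, 10, 222 and 29 counts in KO 15405, 15406, 15409, 15411, 15412 and 15415, and 12, 53, 243 and 29 counts in WT 15416, 15417, 15418 and 15420. C1qb had 516, 155, 740, 545, 1780 and 354 counts in the same KO libraries and 99, 751, 863 and 565 counts in the WT libraries. C1qc had 20, 6, 20, 27, 274 and 199 counts in KO and 29, 130, 457 and 101 in WT. C1qb was the highest of the chains in every library, and over the 9 libraries with more than 3 counts of C1qa the ratio of C1qb to C1qa counts varied widely. It was 129, 148 and 54.5 in KO 15405, 15409 and 15411, on 4, 5 and 10 counts of C1qa. In KO 15412 and KO 15415 it was 8.02 and 12.2, within the WT range of 3.55 to 19.5. In the same 9 libraries the ratio of C1qc to C1qa stayed between 1.23 and 6.86. The annotated lengths are 1040 bases for C1qa and 1088 bases for C1qb, each with a single transcript, and no exon of another gene overlaps C1qb. The tables hold no read positions, so whether the C1qb reads spread over the whole transcript or lie at a single site was not examined, and the level of C1qb and its share of any sum carry that limit. C1qb made up 31.2% to 66.2% of the summed CPM of the macrophage-restricted members in KO and 19.1% to 54.9% in WT. Between genotypes the log2 fold changes were -2.04 ± 1.08 for C1qa, -0.71 ± 0.49 for C1qb and -1.82 ± 0.88 for C1qc (SE; edgeR adjusted p = 0.337, 0.460 and 0.290).

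**Figure D4:**
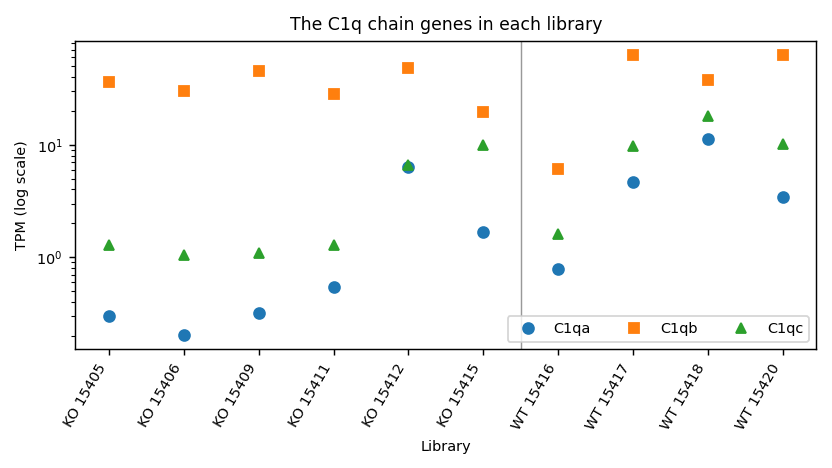
TPM (log scale) of C1qa, C1qb and C1qc in each library, KO left and WT right of the vertical line. C1qb (squares) lies above the other chains in every library, and C1qa (circles) spans 0.203 to 11.2 TPM.

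None of the 5 Fc receptor and adaptor genes passed the test, although the log2 fold change was below 0 for each. Per length the adaptors were the more abundant, with medians of 76.6 TPM for Fcer1g and 39.2 TPM for Tyrobp against 8.14 TPM for Fcgr3 and 0.989 TPM for Fcgr1. Fcer1g, the common gamma chain, stood at 14.3, 52.5 and 104 CPM in KO (lowest, median and highest) and at 16.7, 53.9, 67.4 and 95.4 CPM in WT 15416, 15417, 15418 and 15420. The groups covered the same range, and the log2 fold change was -0.01 ± 0.62 (SE), a sign that turned in 6 of 19 alternatives. Tyrobp (DAP12) stood at 5.58, 19.9 and 40.4 CPM in KO and 9.86, 20.6, 58.0 and 24.6 CPM in WT. Fcgr3, a low-affinity IgG receptor, ranged from 2.27 to 16.2 CPM in KO and from 3.34 to 52.9 CPM in WT, WT 15418 being the high library. Fcgr1, the high-affinity receptor, lay between 0.455 and 11.2 CPM throughout. Fcgr4 was counted in 4 of 10 libraries, KO 15412, KO 15415, WT 15417 and WT 15418, with at most 26 counts.

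Besides Slc40a1, the iron and heme genes comprised Spic, Hmox1 and Slc11a1. Spic, the transcription factor of iron-recycling macrophages and a relative of PU.1, had 29, 4, 26, 4, 302 and 25 counts in KO 15405, 15406, 15409, 15411, 15412 and 15415 and 10, 33, 80 and 48 in WT. KO 15412 was again the high library, at 9.34 CPM. Hmox1 stood at 20.8, 75.7 and 93.6 CPM in KO (lowest, median and highest) and at 3.19, 108, 161 and 107 CPM in WT 15416, 15417, 15418 and 15420. WT 15416 was below all other libraries and the other WT libraries were above all KO libraries. The log2 fold change of Hmox1 was -0.54 ± 0.72 (SE; edgeR adjusted p = 0.738). Slc11a1, a metal transporter of the phagosome, had a log2 fold change of -1.26 ± 0.68 (SE; edgeR adjusted p = 0.346). Its retained-intron transcript Slc11a1-204 held 44.2% of its estimated counts over the libraries.

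None of the 7 lysosomal, killing and lipid genes passed the test. Lgmn stood at 80.6, 143 and 313 CPM in KO (lowest, median and highest) and at 23.1, 257, 216 and 321 CPM in WT 15416, 15417, 15418 and 15420. As for Hmox1, WT 15416 was far below the rest. Lyz2 ranged from 50.9 to 389 CPM in KO and from 33.1 to 229 CPM in WT, and Cybb, the catalytic subunit of the phagocyte oxidase, from 6.12 to 27.6 and from 4.47 to 25.7 CPM. Ctss (cathepsin S) and Mpeg1, a pore-forming protein, had log2 fold changes of -0.74 ± 0.66 and -0.98 ± 0.92 (SE). Apoe differed by -0.04 ± 0.26 (SE), from 870 to 2196 CPM in KO and from 859 to 1640 CPM in WT. Dnase2a, which digests the DNA of engulfed nuclei, differed by 0.43 ± 0.61 (SE). Its exons overlap those of Mast1 on the opposite strand, and with a method that does not keep strand the reads of the pair cannot be told apart. Vcam1, Gas6 and Cx3cr1 share 61, 34 and 78 exonic bases with a gene on the opposite strand.

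Summed over all members, the level was 2092 ± 495 TPM (SD, n = 6) in KO and 1642 ± 543 TPM (SD, n = 4) in WT, a ratio of 1.27. In CPM the sums were 2225 ± 473 and 2377 ± 830, a ratio of 0.936, so the order of the genotypes depended on the unit. Apoe dominates either sum. The macrophage-restricted members summed to 49.5, 49.2, 60.5, 41.3, 155 and 74.6 CPM in KO 15405, 15406, 15409, 15411, 15412 and 15415 and to 39.2, 121, 247 and 149 CPM in WT 15416, 15417, 15418 and 15420. Of the WT libraries, 3 lay above the 5 lower KO libraries, while WT 15416 was the lowest of all and KO 15412 lay within the upper WT range. Their means were 71.7 ± 42.4 (SD, n = 6) and 139 ± 85.7 (SD, n = 4), a ratio of 0.516, which was 0.396 without KO 15412, 0.695 without WT 15418 and 0.534 without both. Without C1qb the sum was 38.5 ± 32.6 in KO and 84.5 ± 67.4 in WT. The spread within each genotype was thus of the size of the difference between them. Of the 17 restricted members, 11 to 15 had counts in a KO library and 14 to 17 in a WT library. With every library thinned to 5315435 counts, the depth of the smallest, these numbers became 11 to 15 and 13 to 17.

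The question of whether the members vary together was addressed first over all their pairs. After the mean of each genotype had been taken out of log2(CPM + 1), the median Spearman correlation over the 666 pairs of members was 0.309, and 76.9% of the pairs were above 0. Over all 139854450 pairs of genes tested the median was 0, and 50% were above 0. For the 136 pairs of macrophage-restricted members the median was 0.321. It fell to 0.209 without KO 15412 and WT 15418 (120 pairs, since Clec4f was then at 0), and for all members to 0.154. On log2(TPM + 1) it was 0.179 for all members. Library depth and the content of other cell types are shared by all pairs, so these medians are a description of the 10 libraries.

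Of the 8 gene pairs fixed for a test, 2 were correlated over the 10 libraries at an adjusted p below 0.05 for Pearson's r. C1qa and C1qc moved together (Pearson's r = 0.929, permutation p = 4.30e-04, adjusted p = 0.00344; Spearman's rho = 0.879, permutation p = 0.00156, adjusted p = 0.0125), and r was 0.943 without the 2 libraries farthest from the median of C1qa, KO 15412 and WT 15418. Within the 6 KO libraries r was 0.838 (exact permutation p = 0.0375). Fcer1g and Tyrobp were also correlated (r = 0.818, permutation p = 0.00254, adjusted p = 0.0102; rho = 0.782, permutation p = 0.0106, adjusted p = 0.0426), with r = 0.647 without KO 15409 and WT 15416. C1qb was not correlated past the threshold with C1qa (r = 0.615, permutation p = 0.0558, adjusted p = 0.112; rho = 0.564, permutation p = 0.0978) or with C1qc (r = 0.575, permutation p = 0.0743, adjusted p = 0.119; rho = 0.479, permutation p = 0.165). Within KO, r between C1qb and C1qc was 0.178 (exact permutation p = 0.792). Cd5l and Timd4, both genes of resident macrophages, gave r = 0.393 (permutation p = 0.270; rho = 0.608, permutation p = 0.0744) and r = -0.117 without KO 15412 and WT 15418. Adgre1 and Csf1r, the receptor for the macrophage growth factor, gave r = 0.661 (permutation p = 0.0378, adjusted p = 0.101; rho = 0.515, permutation p = 0.135) and r = 0.292 without the same libraries. Ctss and Lyz2 (r = 0.525, permutation p = 0.120; rho = 0.588, permutation p = 0.0808) and Gas6 and its receptor Axl (r = 0.110, permutation p = 0.758; rho = 0.139, permutation p = 0.707) did not pass either. With the genotype means removed, Ctss and Lyz2 gave r = 0.740 (permutation p = 0.0129), and 3 of the 8 pairs then passed that threshold.

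The members were next set beside the mean log2(CPM + 1) of 7 lists of other cell types and of the other macrophage-restricted members, 296 relations in all, a comparison chosen after the levels had been seen. Adjusted p-values were read at a threshold of 0.05 here too. For 16 of the 37 members the highest Pearson's r was with the other macrophage-restricted members, from 0.987 for C1qa to 0.102 for Gas6, and for Marco it was 0.620 (permutation p = 0.0592, adjusted p = 0.205; rho = 0.655, permutation p = 0.0453). For 7 members it was with the endothelial list (C1qb, Vcam1, Mertk, Axl, Hmox1, Apoe and Lgmn), for 6 with the monocyte list (Msr1, Cd68, Lyz2, Tyrobp, Cybb and Mpeg1), for 4 with the erythroblast list, for 3 with the granulocyte list and for 1 with the megakaryocyte list. Fewer relations passed: a positive r had an adjusted p below the threshold for 4 members with the other macrophage-restricted members, 6 with the monocyte list, 3 with the endothelial list, 3 with the granulocyte list, 2 with the megakaryocyte list and 0 with the erythroblast, LT-HSC and hepatoblast lists. Lgmn followed the endothelial genes most closely (r = 0.977, permutation p = 1.40e-04, adjusted p = 0.0118; rho = 0.903, permutation p = 8.20e-04, adjusted p = 0.0393), and still did so without WT 15416 and KO 15415, the 2 farthest from the median of the list (r = 0.860) and within KO (r = 0.964). Hmox1 gave r = 0.927 with the same list (permutation p = 0.00283, adjusted p = 0.0441; rho = 0.709, permutation p = 0.0271, adjusted p = 0.176), but 0.277 without the 2 farthest libraries, so that its relation rests on those. Within KO it was 0.834. Mertk gave r = 0.854 (permutation p = 0.0010, adjusted p = 0.0367; rho = 0.745, permutation p = 0.0175, adjusted p = 0.140), 0.535 without the 2 farthest and 0.957 within KO. C1qb gave r = 0.817 (permutation p = 0.00820, adjusted p = 0.0874; rho = 0.733, permutation p = 0.0206), 0.282 without the 2 farthest and 0.452 within KO.

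Fcer1g followed the megakaryocyte genes, among them Pf4 and Itga2b (r = 0.917, permutation p = 1.20e-04, adjusted p = 0.0118; rho = 0.915, permutation p = 5.80e-04, adjusted p = 0.0393), with r = 0.881 without the 2 farthest libraries and 0.983 within KO. Cybb (r = 0.916, permutation p = 1.60e-04, adjusted p = 0.0118; rho = 0.830, permutation p = 0.00445, adjusted p = 0.0830) and Lyz2 (r = 0.880, permutation p = 4.70e-04, adjusted p = 0.0232; rho = 0.842, permutation p = 0.00362, adjusted p = 0.0824) followed the monocyte list. Lyz2 also passed with the megakaryocyte list (r = 0.830, permutation p = 0.00228, adjusted p = 0.0422), and Fcer1g with the monocyte list (r = 0.839, permutation p = 0.00181, adjusted p = 0.0400). By rank Lyz2 was closest to the granulocyte list (rho = 0.903, permutation p = 9.30e-04, adjusted p = 0.0393). Cd5l gave r = 0.914 with the granulocyte list (permutation p = 0.00176, adjusted p = 0.0400; rho = 0.613, permutation p = 0.0672, adjusted p = 0.273), which fell to 0.613 without KO 15412 and WT 15418, the only libraries high in both. Cd5l also passed with the other macrophage-restricted members, at r = 0.836 (permutation p = 0.00189, adjusted p = 0.0400) and rho = 0.907 (permutation p = 8.60e-04, adjusted p = 0.0393). That r was 0.565 without the 2 farthest libraries and 0.991 within KO. Gas6 went against the LT-HSC list (r = -0.846, permutation p = 0.00255, adjusted p = 0.0441; rho = -0.818, permutation p = 0.00561, adjusted p = 0.0830), with r = -0.936 without the 2 farthest libraries. The part of endothelial, megakaryocyte, granulocyte or monocyte RNA in the members' levels was not tested.

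**Figure D5:**
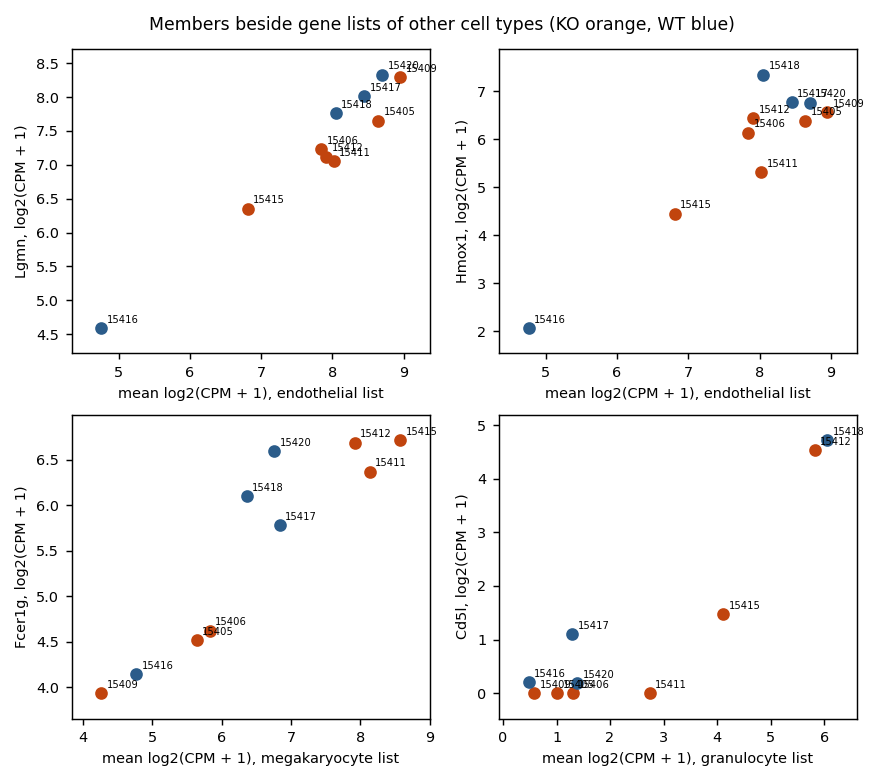
Each point is a library (KO orange, WT blue, labelled by sample number), plotted by the mean log2(CPM + 1) of a cell type list on the x axis and of a member on the y axis. Lgmn rises with the endothelial list over all libraries (r = 0.977), Hmox1 does so through WT 15416 and KO 15415, Fcer1g rises with the megakaryocyte list (r = 0.917), and Cd5l is high in 2 libraries.

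Of 23 other macrophage genes that are not on the list, 0 passed edgeR's test in either direction, and at an unadjusted p under 0.05, 2 were lower and 1 higher in KO. The lower ones were Clec7a (log2 fold change -3.55 ± 1.06, SE) and Folr2 (-2.71 ± 1.12), and the higher one was Abca1 (1.06 ± 0.43). The median of the log2 fold changes over all 23 genes was -0.05. Csf1r stood at 5.25 to 34.4 CPM in KO and 13.9 to 76.2 CPM in WT, with a log2 fold change of -1.15 ± 0.55 (SE; edgeR adjusted p = 0.281). The most abundant per length were Stab1 (median 362 TPM), Lyve1 (300 TPM), Ctsb (257 TPM), Ctsd (230 TPM) and Cd63 (168 TPM). Stab1, a scavenger receptor, and Lyve1, a hyaluronan receptor, are known from sinusoidal endothelium as well, and Lyve1 stood at 10.2 CPM in WT 15416 against 169 to 1576 CPM in the other libraries, and Stab2 at 6.07 CPM against 271 to 2118 CPM.

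The genes most like the summed CPM of the macrophage-restricted members were sought among 10674 genes with a mean of at least 5 CPM. By Pearson's r over the 10 libraries they were Atp6v0d1 (0.935), Gabarapl2 (0.916), Wdr26 (0.880), Ube2e3 (0.871), Fis1 (0.854), Rrm2b (0.836), Plbd1 (0.828), Gdap2 (0.824), Mpc2 (0.822) and Cdkn3 (0.817). Atp6v0d1, a subunit of the vacuolar proton pump, ran from 112 to 151 CPM in KO and from 94.1 to 183 CPM in WT. As the genes were chosen for this likeness, r is a description. Plbd1 ran from 0.455 CPM in WT 15416 to 18.5 CPM in WT 15420.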

How the data were processed

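LT-HSCs of 6 KO and 4 WT embryos were compared. The authors made SmartSeq2 libraries, a method that does not keep strand, sequenced single-end reads and quantified them with Kallisto 0.44.0 against Gencode vM16 (GRCm38). The deposited transcript tables hold estimated counts and TPM, and the deposited gene table holds whole-number counts, sums of the transcript estimates by symbol (within 1 count for 97.5% of the values, on symbols of Gencode vM21). TPM was summed by symbol here.

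Genes whose counts over the 10 libraries added up to 11 or more entered edgeR 4.0.16 (R 4.3.3; TMM, glmQLFit with the robust option, glmQLFTest), with Benjamini-Hochberg adjustment and the study's threshold of 0.1. The study's own test was DESeq2, run here (1.42.0) as an alternative. CPM are TMM-normalized. A group at or under 3 counts in every library was set to 3 counts per library for a lower bound. The reads carry no molecular identifiers, so such limits cover counting error only. The embryos were littermates by the study's description. The labels give a number for each sample but not its litter, so litter is in no fit, and p-values measure the spread between these samples. All KO numbers (15405 to 15415) come before all WT numbers (15416 to 15420). Anything that follows the order of the numbers thus cannot be told apart from genotype. Correlations used log2(CPM + 1) and 100000 permutations (all orders within KO). Positions are from Gencode vM21 and promoters from RefSeq, both on GRCm38.

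The members and lists were chosen with earlier results of these data known. Genes named are all members, the other macrophage genes past the threshold or with the 5 highest median TPM, and the 10 genes most like the restricted members. Genes named from the other lists, and Clec7a, Folr2 and Abca1, were chosen after their values were seen. Each library was left out in turn, and the removal of KO 15412 and WT 15418 together, the restricted members alone or without C1qb, and the comparison with cell type lists were added after the data were seen.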

Additional observations from a re-analysis of the deposited data

Results flagged for a closer look

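The highest or lowest library of each genotype was set against the others by Dixon's gap criterion for each member, in the 72 gene and genotype combinations that vary at all. The criterion marks about 1 in 20 groups of normal values by chance. Of the members' combinations 12 stood out (16.7%), all on the high side, and over all genes tested 4845 of 33032 did (14.7%), so that the members' share is near the background. In KO 15412, 8 of 35 members (22.9%, beside 3.20% of all genes) stood apart from the other KO libraries: Adgre1 at 11.8 CPM (others 0.0609 to 1.73), C1qa at 6.87 (0.158 to 1.91), Cd5l at 22.1 (0 to 1.78), Spic at 9.34 (0.182 to 1.77), Timd4 at 0.588 (all others 0), Fcgr4 at 0.526 (0 to 0.131), Ctss at 19.3 (2.07 to 8.28) and Cx3cr1 at 8.63 CPM (0.592 to 2.69). In WT 15418, 3 of 37 members (8.11%, beside 4.65% of all genes) stood apart from the other WT libraries: Adgre1 at 40.7 CPM (others 0.142 to 3.02), Cd5l at 25.4 (0.142 to 1.15) and Clec4f at 3.85 CPM (all others 0). Cd163 stood apart in KO 15406, at 1.58 CPM against 0.228 to 0.557 CPM, on 10 counts.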

How the results depend on the processing

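The call of 2 members lower in KO remained at 2 with DESeq2 at the study's fold-change threshold, DESeq2 size factors, a filter at 1 count and filterByExpr. It was 1 without the robust option, 0 at an adjusted p below 0.05, 0 with an offset for transcript length, 0 with Xist as a covariate and 0 without KO 15412 and WT 15418 together, and 0 to 2 with single libraries left out. No alternative called a member higher. Where edgeR called 0 members, 0 or 1 gene was called in all. DESeq2 without a fold-change threshold added Ms4a7, so that 3 members were called. Over all 16725 genes tested that fit called 2143, of which 1145 were lower in KO. filterByExpr tested 34 of the members. The length offset moved the median log2 fold change of all genes from 0.06 to -0.06 and left that of the members at -0.73. The sign of the fold change was kept for 25 members in every alternative that tested them. It turned for members far from the threshold (log2 values): Cd68 to -0.08 and Lgmn to 0.04 with Xist as a covariate, Fcer1g to 0.17 and Apoe to 0.08 with the length offset, Apoe to 0.11 with Xist and to 0.14, and Cd14 to 0.81, without KO 15412 and WT 15418. With single libraries left out the ranges were -3.95 to 1.20 for Adgre1, -4.20 to 3.04 for Cd5l, -0.09 to 0.93 for Msr1, -0.01 to 0.92 for Cd68, -1.28 to 0.42 for Fcgr1, -0.32 to 0.33 for Fcer1g, -0.82 to 0.17 for Tyrobp, -0.14 to 0.51 for Axl, -0.37 to 1.09 for Cd14, -0.51 to 0.08 for Cybb, -0.23 to 0.10 for Apoe and -0.65 to 0.03 for Lgmn. The median pair correlation of 0.309 moved to 0.179 on log2(TPM + 1) and 0.154 without KO 15412 and WT 15418, and lay between 0.233 and 0.367 with single libraries left out. The ratio of summed TPM, 1.27, was 0.676 for the macrophage-restricted members and 0.516 for these without C1qb. The cause of these changes was not tested. With members near 0 counts in most libraries, differences at a few counts were not detectable at this depth.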

Other observations

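Marco and Slc40a1, the members past the threshold, are both on chromosome 1, which also carries Tnfrsf11a, the locus of Cre in the KO embryos (chr1:105780718-105847981, GRCm38). Marco lies 14.6 Mb and Slc40a1 59.9 Mb from it. Of the other members on that chromosome, Slc11a1 lies 31.4 Mb from it, Fcgr3 and Fcgr4 65.2 Mb and Fcer1g 65.4 Mb, and none of these passed. Of the 14 genes tested within 5 Mb of Tnfrsf11a, 2 passed the threshold, Relch and Pign, its neighbours at 0.0255 and 0.117 Mb, and both were higher in KO. Relch stood at 21.3 to 39.8 CPM in KO and at 12.6, 14.6, 9.39 and 15.7 CPM in WT 15416, 15417, 15418 and 15420, with a log2 fold change of 1.20 ± 0.27 (SE; edgeR adjusted p = 0.0824), and the groups did not overlap. Pign stood at 21.7 to 38.5 CPM in KO and at 9.10, 14.4, 17.2 and 12.0 CPM in WT, with a log2 fold change of 1.07 ± 0.29 (SE; edgeR adjusted p = 0.0910), again without overlap. Within 20 Mb, 7 of 137 genes (5.11%) passed, beside 4.31% on chromosome 1 and 3.99% over all genes tested. These genes were looked up after the values of Marco were seen. Any relation of these levels to the Cre locus was not tested.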
